A study of Mus musculus with 12 samples.

Results

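The genes described here encode the proteasome, the barrel-shaped protease that degrades ubiquitin-tagged proteins. They were the rows of a gene count table from mouse kidney tubular cells whose Ensembl identifiers map to protein-coding symbols of the *Psma*, *Psmb*, *Psmc* and *Psmd* series, without the immunoproteasome genes *Psmb8*, *Psmb9* and *Psmb10*. Of 55487 genes in the table, 37 met this rule. They comprised 16 genes of the core particle, 17 genes of the regulatory particle, 3 genes of base assembly chaperones that share the *Psmd* root (*Psmd5*, *Psmd9* and *Psmd10*), and *Psmc3ip*, a gene of meiotic recombination that matches the rule by its symbol and is not a subunit. Another 4 matches were pseudogenes and were left out.

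The cells, im-TEC, are a mouse line of conditionally immortalized tubular epithelial cells. All groups carried the SV40 large T antigen, had been kept at 33 °C with interferon-gamma, and had then spent 7 days at 37 °C without it before seeding. They were treated for 48 h in 4 groups of 3 libraries: TGFβ at 10 ng/mL together with 50 µM NNMTi (the combined group), TGFβ alone, NNMTi alone, and untreated control. NNMTi is 5-amino-1-methylquinolinium, an inhibitor of nicotinamide N-methyltransferase (NNMT), and TGFβ is a cytokine that drives fibrotic change in kidney epithelium. Nothing in the labels tells whether the replicates came from separate cultures. The p-values therefore cover only the spread between these libraries, which may be technical.

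As background, the core particle is a stack of rings. The outer alpha rings (*Psma* genes) gate entry and the inner beta rings (*Psmb* genes) hold the protease sites, with *Psmb5* giving the chymotrypsin-like, *Psmb7* the trypsin-like and *Psmb6* the caspase-like activity. The regulatory particle caps the barrel. Its base contains the ATPases that unfold substrates (*Psmc* genes) and the scaffold and ubiquitin-receptor subunits *Psmd1*, *Psmd2* and *Psmd4*, while its lid includes *Psmd14*, the enzyme that cuts ubiquitin off the substrate. In mammalian cells the transcription factor NRF1 (*Nfe2l1*) can raise the subunit genes together when proteasome activity is low, through antioxidant response elements.

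Counts assigned to genes ranged from 2584117 to 11866903 per library with a median of 8980400.5, and TGFβ replicate 3 was the shallowest. Levels are in CPM, counts relative to a fixed total per library, on library sizes scaled by the trimmed mean of M-values (TMM). The libraries read the 3′ end of each transcript, so levels of different genes can be set side by side without a length term. The limit set by a count of 0, taken as 3 counts, was 0.266 to 1.15 CPM depending on the library, for counting error only. Replicates of the TGFβ group differed most, with a biological coefficient of variation of 0.111 in the combined group, 0.227 with TGFβ, 0.0885 with NNMTi and 0.0657 in controls. The epithelial markers *Pax8*, *Pax2*, *Cdh16* and *Krt8* were present. *Epcam* was at 0 in all libraries, *Cdh1* at or near 0, and *Krt18* at most 4.59 CPM in any library. Of the 8 proximal tubule markers, *Aqp1* and *Lrp2* were present. *Slc34a1*, *Hnf4a*, *Miox*, *Slc5a2* and *Slc22a6* were at or near 0, and *Cubn* had at most 1.62 CPM in any library.

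The promoters of these genes are shown first because the regulatory and core particle genes differed in them. RefSeq promoter windows on GRCm38.p6, each 300 bases with 250 before and 50 after the transcript start, were matched for 30 of the 37 genes, in 32 windows. The ETS core CCGGAAG, searched on both strands, was found in 9 of 14 regulatory particle genes (64.3%) and in 1 of 12 core particle genes (8.33%), *Psma6*. It was present in 8.86% of all 32851 promoters of the table, in 11.6% of those of protein-coding genes and in 18.4% of those of protein-coding genes that were tested here. None of these matches overlapped another of the motifs searched. The regulatory genes with a match were *Psmc1*, *Psmc2*, *Psmc6*, *Psmd2*, *Psmd4*, *Psmd6*, *Psmd11*, *Psmd12* and *Psmd13*. The 100 bases before the start of 5 of them follow, in the direction of transcription, with the ETS core in capitals on whichever strand it lies (CTTCCGG is the same motif on the other strand).
*Psmd12*, chr11:107479428-107479527, plus strand: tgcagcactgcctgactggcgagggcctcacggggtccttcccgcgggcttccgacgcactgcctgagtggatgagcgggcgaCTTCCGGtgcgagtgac
*Psmd11*, chr11:80428515-80428614, plus strand: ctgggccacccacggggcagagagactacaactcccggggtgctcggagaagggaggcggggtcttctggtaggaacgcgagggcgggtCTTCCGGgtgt
*Psmd2*, chr16:20651552-20651651, plus strand: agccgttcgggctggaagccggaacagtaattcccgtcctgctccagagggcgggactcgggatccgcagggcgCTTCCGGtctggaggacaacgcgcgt
*Psmc1*, chr12:100110102-100110201, plus strand: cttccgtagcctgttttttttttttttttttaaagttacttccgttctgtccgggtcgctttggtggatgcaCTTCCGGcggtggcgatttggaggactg
*Psmc6*, chr14:45329724-45329823, plus strand: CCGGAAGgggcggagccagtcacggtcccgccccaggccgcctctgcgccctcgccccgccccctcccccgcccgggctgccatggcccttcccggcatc

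The match lay within 30 bases of the start in *Psmd12* (17 bases upstream), *Psmd11* (11), *Psmd2* (26) and *Psmc1* (28), and farther away in *Psmc6* (100). The antioxidant response element core TGACNNNGC was found in 5 genes: *Psmb5*, *Psmb6*, *Psmc6*, *Psmd9* and *Psmd12*. That was 15.6% of the windows, against 12.4% of all promoters. Its match lay 47 bases upstream of the start in *Psmb5* and 9 bases upstream in *Psmb6*, both of which encode protease subunits; their upstream bases follow with the element in capitals.
*Psmb5*, chr14:54617996-54618095, minus strand: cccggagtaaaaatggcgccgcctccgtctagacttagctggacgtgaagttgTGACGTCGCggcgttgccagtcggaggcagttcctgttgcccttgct
*Psmb6*, chr11:70525257-70525356, plus strand: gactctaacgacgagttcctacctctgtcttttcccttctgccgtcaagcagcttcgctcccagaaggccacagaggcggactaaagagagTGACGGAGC

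The CCAAT box (CCAAT) was present in 40.6% of the windows, against 37.4% of all promoters. The GC box (GGGCGG) was present in 56.2% of the windows, against 35.7% of all promoters and 63.8% of those of tested protein-coding genes. These are letter matches and describe no binding.

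In controls the core particle genes ranged from 20.9 ± 2.60 CPM for *Psmb5* to 367 ± 6.88 CPM for *Psmb4* (SD, n = 3), a 17.6-fold range with a median of 71.7 CPM. The regulatory particle genes ranged from 68.4 ± 6.90 CPM for *Psmd6* to 444 ± 10.7 CPM for *Psmd8* (SD, n = 3), a 6.49-fold range with a median of 188 CPM. *Psmd8*, a lid subunit, had the highest mean of all members and *Psmc3ip* the lowest of those tested, with 12.0 ± 1.62 CPM in controls (SD, n = 3). The tissue-restricted core genes were not detectable at this depth or nearly so: the testis alpha subunit gene *Psma8* had 0 counts in all 12 libraries, and the thymus beta subunit gene *Psmb11* had at most 0.266 CPM in any library. These 2 did not pass the filter on low counts, so 35 members were tested. The members together took 0.439 to 0.627% of the counts in each library.

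Summed over each particle, the levels were ordered alike for core and regulatory genes. The core particle genes summed to 1935.1, 2077.3 and 1917.6 CPM in the combined group, to 2023.8, 2118.9 and 2231.4 CPM with TGFβ, to 1414.3, 1488.3 and 1549.6 CPM with NNMTi, and to 1732.1, 1751.1 and 1757.9 CPM in controls. For the regulatory particle genes the sums were 3775.0, 3950.1 and 3943.4 CPM in the combined group, 4078.8, 4013.9 and 3758.4 CPM with TGFβ, 2783.7, 2812.6 and 2760.0 CPM with NNMTi, and 3174.6, 3221.6 and 3208.4 CPM in controls. For both particles every TGFβ and every combined library lay above every control library, every NNMTi library lay below every control library, and the combined and TGFβ libraries overlapped. The mean with TGFβ was 1.22 times the control mean for the core and 1.23 times for the regulatory particle, and with NNMTi it was 0.85 and 0.87 times the control mean. No test was made on these sums.

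**Figure D1:**
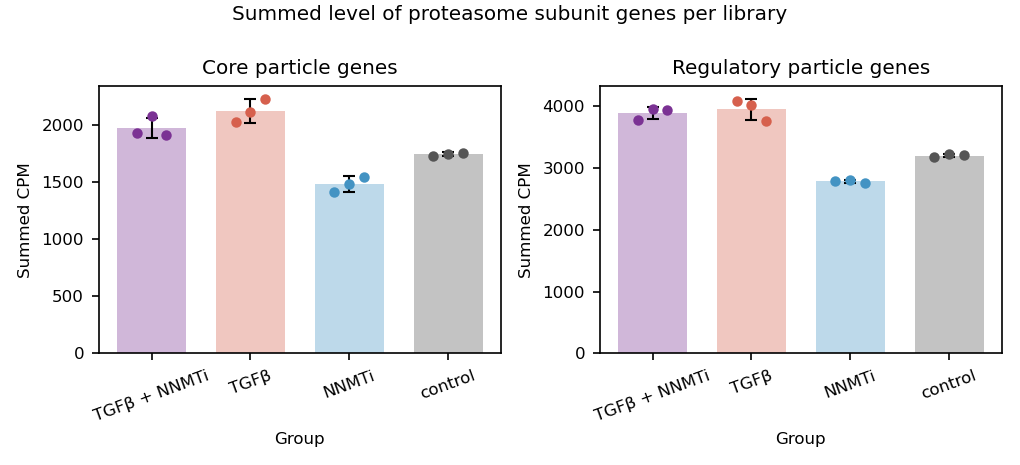
Summed CPM of the core particle genes (left) and regulatory particle genes (right) in each group; bars are means of 3 libraries, error bars are SD and points are libraries. The NNMTi libraries lie below the controls, and the TGFβ and combined libraries lie above them, in both panels.

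The assembly chaperones did not share this order. *Psmd5*, *Psmd9* and *Psmd10* summed to 169 ± 12.8 CPM in the combined group, 152 ± 9.19 CPM with TGFβ, 160 ± 4.76 CPM with NNMTi and 178 ± 6.35 CPM in controls (SD, n = 3 each). The ratio of core to regulatory sums lay between 0.486, in combined replicate 3, and 0.594, in TGFβ replicate 3.

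**Figure D2:**
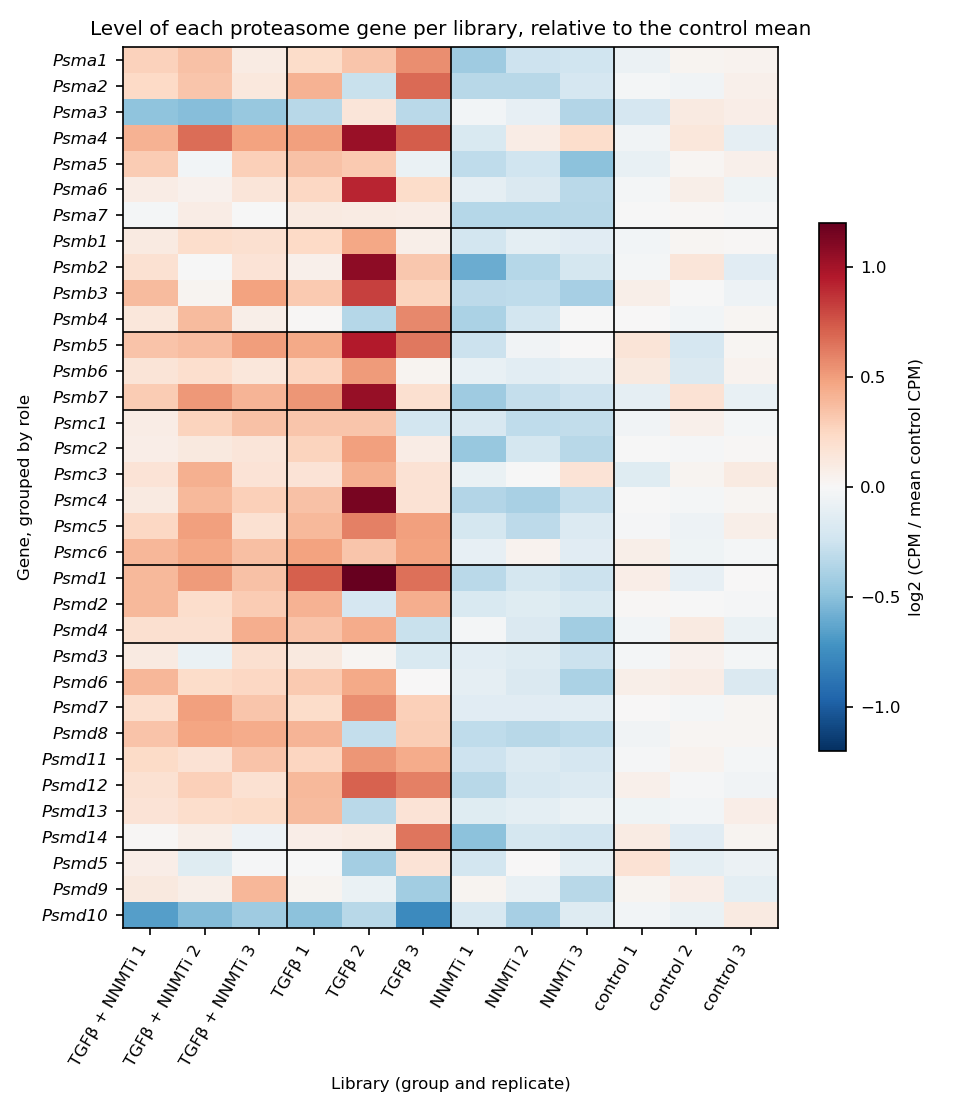
Level of each of 34 proteasome genes (rows, grouped by role) in each of the 12 libraries (columns), as log2 of its CPM over the mean control CPM. *Psmc3ip* and the 2 genes not tested are left out. Most rows are red in the combined and TGFβ columns and blue in the NNMTi columns; *Psma3* and *Psmd10* are blue in all 3 combined columns, and the TGFβ columns vary most within rows.

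With TGFβ alone, members of both particles rose by moderate amounts, 1 chaperone gene fell, and about as many members were not called. By edgeR's quasi-likelihood test, with p adjusted by Benjamini and Hochberg over all 13581 tested genes and called below 0.05, 17 members were higher and 1 was lower than in controls. Among all tested genes 19.4% were called higher and 17.1% lower. The median member log2 fold change was 0.29, against 0.02 over all tested genes and 0.05 over protein-coding genes with a mean of 10 CPM or more, and 30 of 35 members were above 0. Of the core genes 8 of 14 (median 0.345) and of the regulatory genes 8 of 17 (median 0.29) were called higher, and the remaining call was *Psmc3ip*. By ring and module the calls were 3 of 7 alpha ring genes, 5 of 7 beta ring genes, 4 of 6 base ATPases, 1 of 3 base scaffold and receptor genes and 3 of 8 lid genes.

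*Psmd1* (ENSMUSG00000026229), a scaffold of the base, had the largest fold change. It had 322, 448 and 309 CPM with TGFβ, against 208, 183 and 197 CPM in controls. All 3 TGFβ libraries lay above all 3 controls, and the log2 fold change was 0.88 ± 0.12 (SE; edgeR adjusted p = 1.33e-05). *Psma4* (ENSMUSG00000032301), an alpha ring subunit, had 86.2, 125 and 101 CPM with TGFβ, against 59.5, 67.3 and 56.8 CPM in controls (log2 fold change 0.77 ± 0.14, adjusted p = 0.000248 by edgeR). The lid subunit *Psmd12* (ENSMUSG00000020720) had 113, 141 and 131 CPM with TGFβ, against 89.7, 85.1 and 83.7 CPM in controls (log2 fold change 0.57 ± 0.10, adjusted p = 0.000243 by edgeR). The groups did not overlap for either gene.

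Among the base ATPases, *Psmc5* (ENSMUSG00000020708) had 136, 158 and 146 CPM with TGFβ, against 103, 100 and 109 CPM in controls, a log2 fold change of 0.50 ± 0.10 (edgeR adjusted p = 0.000952). *Psmc6* (ENSMUSG00000021832) had 164, 148 and 164 CPM with TGFβ, against 123, 113 and 116 CPM in controls, a log2 fold change of 0.44 ± 0.09 (edgeR adjusted p = 0.00111). Both ATPases were higher in each TGFβ library than in any control. In a fit of only the TGFβ and control libraries, the adjusted p by edgeR was larger. It was 0.00186 for *Psmd1*, 0.00438 for *Psma4*, 0.00629 for *Psmd12*, 0.00855 for *Psmc5* and 0.0144 for *Psmc6*. The calls of *Psmd1*, *Psma4*, *Psmd12*, *Psmc5*, *Psmc6* and *Psmb7* held under all 15 alternative settings tried.

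The 3 protease subunits did not reach the threshold together. *Psmb5* (ENSMUSG00000022193) had 28.7, 40.5 and 32.5 CPM with TGFβ, against 23.3, 18.2 and 21.3 CPM in controls (log2 fold change 0.70 ± 0.15, edgeR adjusted p = 0.00134). *Psmb7* (ENSMUSG00000026750) had 99.3, 142 and 78.8 CPM with TGFβ, against 64.1, 77.8 and 64.6 CPM in controls (log2 fold change 0.66 ± 0.16, edgeR adjusted p = 0.0034). Its TGFβ replicate 3 and its highest control were within about 1 CPM of each other. In the fit of only the TGFβ and control libraries, the adjusted p by edgeR was 0.0136 for *Psmb5* and 0.0346 for *Psmb7*. *Psmb6* (ENSMUSG00000018286) had 139, 166 and 119 CPM with TGFβ, against 126, 103 and 119 CPM in controls; its groups overlapped and it was not called (log2 fold change 0.29 ± 0.11, edgeR adjusted p = 0.0501). All 3 have annotated pseudogene copies, so reads could be split between copies and these values are uncertain to that extent. Copies of other members under other names were not looked for. The lid deubiquitinase gene *Psmd14* (ENSMUSG00000026914) had 88.8, 89.9 and 130 CPM with TGFβ, against 89.4, 76.0 and 85.9 CPM in controls, and was not called either (log2 fold change 0.28 ± 0.14, edgeR adjusted p = 0.121).

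The member that fell was *Psmd10* (ENSMUSG00000031429), which encodes gankyrin, an assembly chaperone of the base that also binds RB1 and MDM2. It had 40.1, 45.0 and 33.3 CPM with TGFβ, against 55.1, 53.4 and 61.1 CPM in controls, without overlap (log2 fold change -0.50 ± 0.13, edgeR adjusted p = 0.00503). The call was lost when all libraries were thinned to the shallowest (adjusted p = 0.0611). The other two chaperone genes had log2 fold changes of -0.09 for *Psmd5* and -0.12 for *Psmd9*, and neither was called.

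Several members varied strongly within the TGFβ group. The median coefficient of variation over the 35 members was 7.02% in the combined group, 17.8% with TGFβ, 6.53% with NNMTi and 4.63% in controls. *Psmd8* had 587, 364 and 543 CPM with TGFβ, against 431, 450 and 450 CPM in controls, so that replicate 2 lay below the controls and the other two above. *Psmd2*, the other base scaffold, showed the same split, with 512, 334 and 518 CPM with TGFβ, against 388, 384 and 381 CPM in controls. *Psmb2*, a beta ring gene, had 41.7, 84.5 and 50.1 CPM with TGFβ, against 39.5, 44.2 and 36.5 CPM in controls, with TGFβ replicate 1 inside the range of the controls and the other two above it. Leaving out TGFβ replicate 3 gave 23 members called higher, where 20.3% of all tested genes were, and leaving out control replicate 1 gave 12, where 15.6% were. Without TGFβ replicates 2 and 3 the count was 14, where 14.9% of all tested genes were called higher. A fit of only the TGFβ and control libraries called 10 higher, where 15.4% of all tested genes were.

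**Figure D3:**
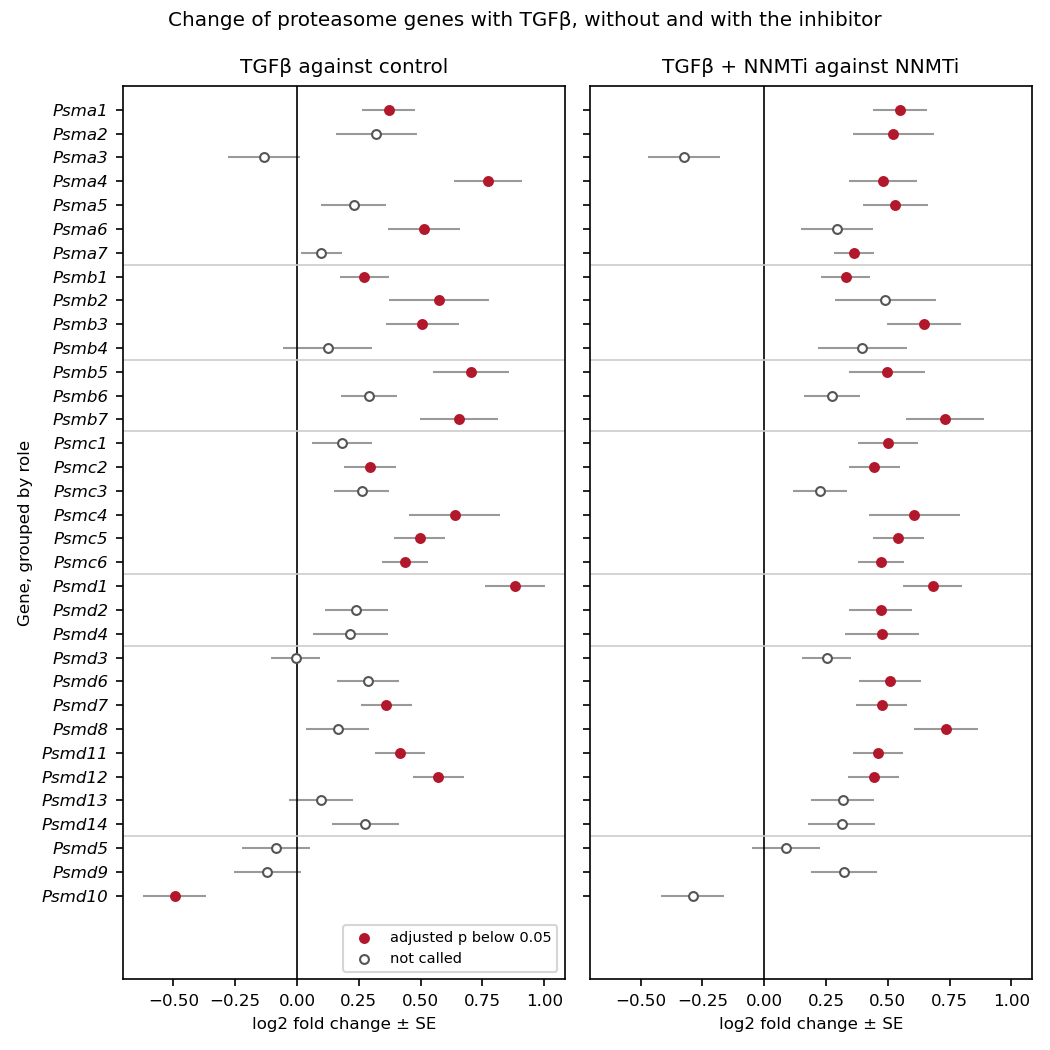
Log2 fold change with its SE for each of 34 proteasome genes, for TGFβ against control (left) and for TGFβ with NNMTi against NNMTi alone (right); filled points have an edgeR adjusted p below 0.05. Most points lie right of 0 in both panels, *Psmd10* and *Psma3* lie left of 0 in both, and the right panel has more filled points.

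The TGFβ response in cells that also received NNMTi was measured in libraries that share no sample with the comparison above. Here 23 members were higher and 0 lower in the combined group than with NNMTi alone, against 18% of all tested genes called higher and 18.3% lower (36.3% in either direction). By DESeq2 no member was lower either, against 15.6% of all tested genes. In that direction 2 members had an unadjusted edgeR p below 0.05, and the share of all tested genes below it was not taken. The median member log2 fold change was 0.47, against -0.00248 over all tested genes. The calls covered 9 of 14 core genes (median 0.49), 13 of 17 regulatory genes (median 0.47), 0 of 3 chaperone genes and *Psmc3ip*. In 31 members every combined library lay above every NNMTi library, and in 2 every one lay below, against 26% and 26.1% of all tested genes.

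*Psmd8* (ENSMUSG00000030591) led this comparison. It had 564, 617 and 604 CPM in the combined group, against 360, 351 and 360 CPM with NNMTi, a log2 fold change of 0.74 ± 0.13 (edgeR adjusted p = 0.000176). *Psmd1* had 256, 279 and 250 CPM in the combined group, against 156, 169 and 164 CPM with NNMTi (log2 fold change 0.68 ± 0.12, edgeR adjusted p = 0.000197). Neither gene's groups came near each other. *Psma1* (ENSMUSG00000030751), an alpha ring gene, had 116, 123 and 102 CPM in the combined group, against 71.3, 80.8 and 81.1 CPM with NNMTi (log2 fold change 0.55 ± 0.11, edgeR adjusted p = 0.00059).

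For the ATPases, *Psmc5* had 124, 147 and 118 CPM in the combined group, against 89.7, 83.9 and 93.3 CPM with NNMTi (log2 fold change 0.54 ± 0.10, edgeR adjusted p = 0.000413). *Psmc6* had 154, 162 and 151 CPM in the combined group, against 110, 120 and 106 CPM with NNMTi (log2 fold change 0.47 ± 0.09, edgeR adjusted p = 0.000494). The protease subunit genes again reached the threshold in 2 of 3 cases. *Psmb7* had 84.8, 98.5 and 91.3 CPM in the combined group, against 51.1, 56.3 and 58.0 CPM with NNMTi (log2 fold change 0.73, edgeR adjusted p = 0.00151). *Psmb5* had 26.5, 27.0 and 29.6 CPM in the combined group, against 17.5, 20.3 and 21.0 CPM with NNMTi (log2 fold change 0.50, edgeR adjusted p = 0.0156). *Psmb6* had 129, 134 and 128 CPM in the combined group, against 109, 106 and 108 CPM with NNMTi (log2 fold change 0.27, edgeR adjusted p = 0.0648), without overlap but not called. *Psmd14* had 84.6, 87.9 and 80.6 CPM in the combined group, against 59.7, 72.5 and 71.5 CPM with NNMTi, and was not called (log2 fold change 0.31, edgeR adjusted p = 0.0782).

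Set side by side, 15 members were called higher in both TGFβ comparisons, which is 88.2% of the 17 called without NNMTi and 65.2% of the 23 called with it. Over all tested genes these shares were 69% and 74.3%. The sign was the same in 32 of 35 members (91.4%), against 80.1% of all tested genes. The 15 genes were *Psma1*, *Psma4*, *Psmb1*, *Psmb3*, *Psmb5*, *Psmb7*, *Psmc2*, *Psmc3ip*, *Psmc4*, *Psmc5*, *Psmc6*, *Psmd1*, *Psmd7*, *Psmd11* and *Psmd12*. Of their calls without NNMTi, that of *Psmb1* was lost in 9 of 15 alternatives, those of *Psmc2* and *Psmc3ip* in 8 each. The *Psma1* call was lost in 3, and the rest in at most 2. *Psmb2*, called only without NNMTi, lost that call in 8. Of the regulatory genes with the ETS core in their promoter, 4 of 9 were called higher with TGFβ alone, and of those without it 3 of 5 were.

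NNMTi alone was accompanied by slightly lower levels of most members, of which 1 was called. Compared with controls, 33 of 35 members had a log2 fold change below 0 and the median was -0.21, against 0.01 over all tested genes. One member was called lower and 0 higher, where 5.8% of all tested genes were called lower and 2.47% higher (8.27% in either direction). By unadjusted edgeR p below 0.05 the counts were 11 lower and 0 higher, and the share of all tested genes below it was not taken. DESeq2 called 0 higher, against 2.35% of all tested genes. The called gene was *Psma7* (ENSMUSG00000027566), an alpha ring subunit, which had 272, 272 and 275 CPM with NNMTi, against 345, 348 and 343 CPM in controls (log2 fold change -0.34 ± 0.08, edgeR adjusted p = 0.0132). Its groups did not overlap. The call was lost without NNMTi replicate 2 or without any of the controls, with adjusted p up to 0.0671.

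The count of lower members differed between fits. In 23 of 35 members every NNMTi library lay below every control library, against 18.7% of all tested genes, and in 0 members above, against 17%. When the model held only the NNMTi and control libraries, whose replicates differed least, 18 members were called lower and 0 higher, against 12.7% and 9.94% of all tested genes, and with limma voom and sample quality weights 16 were, against 12.3%. In the fit of 6 libraries *Psmd8* had a log2 fold change of -0.32 ± 0.05 (adjusted p = 5.27e-05 by edgeR), *Psmc2* of -0.33 ± 0.07 (adjusted p = 0.000376) and *Psma2* of -0.29 ± 0.06 (adjusted p = 0.000777). *Psmd8* had 360, 351 and 360 CPM with NNMTi, against 431, 450 and 450 CPM in controls.

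The protease subunits and *Psmd14* were not called with NNMTi in the model of all 12 libraries. In the fit of 6 libraries *Psmb7* (log2 fold change -0.32, edgeR adjusted p = 0.0102) and *Psmd14* (-0.31, adjusted p = 0.01) were called lower, as they were with voom weights (adjusted p = 0.0212 and 0.047), and *Psmb5* and *Psmb6* were not. *Psmb5* had 17.5, 20.3 and 21.0 CPM with NNMTi, against 23.3, 18.2 and 21.3 CPM in controls, and *Psmb6* had 109, 106 and 108 CPM with NNMTi, against 126, 103 and 119 CPM in controls. Both overlapped. *Psmb7* had 51.1, 56.3 and 58.0 CPM with NNMTi, against 64.1, 77.8 and 64.6 CPM in controls, and *Psmd14* had 59.7, 72.5 and 71.5 CPM with NNMTi, against 89.4, 76.0 and 85.9 CPM in controls, neither with overlap. Counts in mitochondrially encoded genes made up 11.8 ± 0.56% of the total with NNMTi and 7.61 ± 0.52% in controls (SD, n = 3 each). As a share of nuclear gene counts alone the members took 0.502 ± 0.008% with NNMTi and 0.582 ± 0.006% in controls (SD, n = 3 each). Whether the mitochondrial share bears on the member levels was not tested.

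**Figure D4:**
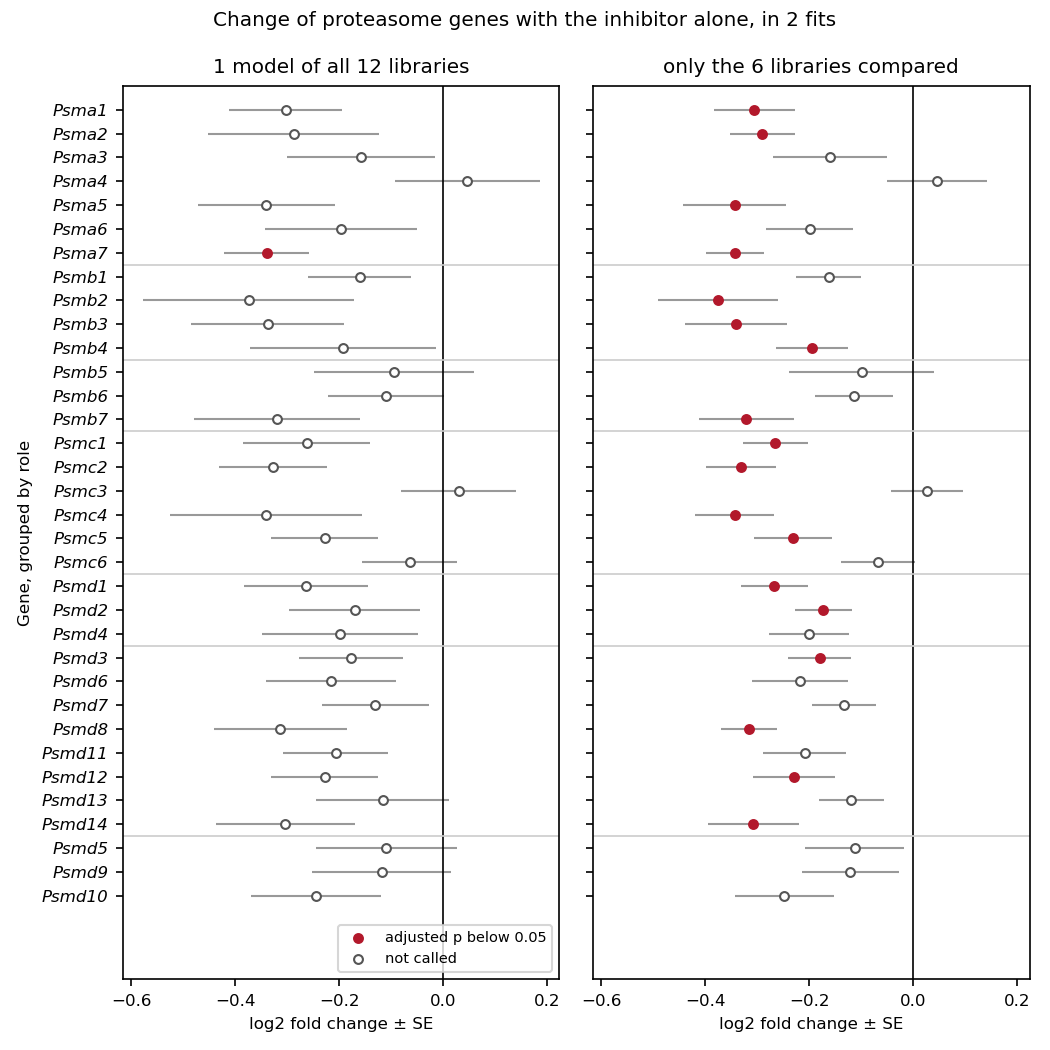
Log2 fold change with its SE of 34 proteasome genes for NNMTi against control, from the model of all 12 libraries (left) and from a model of the 6 libraries compared (right); filled points have an edgeR adjusted p below 0.05. The points sit at nearly the same values in both panels, the error bars are shorter on the right, and 1 point is filled on the left and 18 on the right.

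With NNMTi added to TGFβ, the base scaffold gene *Psmd1* and the lid gene *Psmd12* were lower than with TGFβ alone. These 2 members were called lower and 0 higher, a share near that of all tested genes, where 6.97% of all tested genes were called lower and 3.45% higher (10.4% in either direction). DESeq2 also called 0 higher, against 3.52% of all tested genes. In that direction 1 member had an unadjusted edgeR p below 0.05, and the share of all tested genes below it was not taken. The median member log2 fold change was -0.09, against -0.02 over all tested genes. *Psmd1* had 256, 279 and 250 CPM in the combined group, against 322, 448 and 309 CPM with TGFβ (log2 fold change -0.46 ± 0.12, edgeR adjusted p = 0.0191). *Psmd12* had 97.6, 105 and 98.0 CPM in the combined group, against 113, 141 and 131 CPM with TGFβ (log2 fold change -0.35 ± 0.10, edgeR adjusted p = 0.0335). Both had no overlap between the groups. In 5 members every combined library lay below every TGFβ library and in 1 above, against 13.8% and 10.1% of all tested genes. The *Psmd1* call was lost in 4 and the *Psmd12* call in 9 of 15 alternatives, and both were lost without TGFβ replicates 2 and 3, where 4.74% of all tested genes were called lower and 2.45% higher. The fit of only these 6 libraries also called 0 members lower, against 2.59% of all tested genes. With voom and sample weights 1 was lower and 0 were higher, against 8.73% and 5.14%.

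Among the protease subunits, *Psmb5* had 26.5, 27.0 and 29.6 CPM in the combined group, against 28.7, 40.5 and 32.5 CPM with TGFβ, and the groups overlapped (log2 fold change -0.30 ± 0.15, edgeR adjusted p = 0.223). *Psmb6* (log2 fold change -0.13) and *Psmb7* (-0.24) overlapped too and were not called. *Psmd14* had 84.6, 87.9 and 80.6 CPM in the combined group, against 88.8, 89.9 and 130 CPM with TGFβ, without overlap and not called (log2 fold change -0.27, edgeR adjusted p = 0.229).

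The difference between the NNMTi effects with and without TGFβ was tested as an interaction, and 0 members were called higher or lower, against 0.641% and 0.471% of all tested genes (1.11% in either direction). DESeq2 also called 0, where 1.3% of all tested genes were called higher and 0.687% lower. By unadjusted edgeR p below 0.05 the counts were 3 higher and 0 lower, and the share of all tested genes below it was not taken. The 3 were *Psmd8*, *Psmd9* and *Psma7*. *Psmd8* had an interaction of 0.57 ± 0.18 on the log2 scale (edgeR adjusted p = 0.176). It was called without TGFβ replicate 2, whose *Psmd8* level of 364 CPM stood apart from the other TGFβ libraries. For *Psmd1*, the gene with the lowest adjusted p in the TGFβ comparison, the interaction was -0.20 ± 0.17 (edgeR adjusted p = 0.747). The lower level of *Psmd1* in the combined group against TGFβ was therefore not shown to differ from its difference between NNMTi and control.

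Against untreated controls, the combined group had 7 members higher and 2 lower, where 15.3% of all tested genes were called higher and 16.5% lower. The median member log2 fold change was 0.24, against 0.03 over all tested genes. Scaling by library size alone moved the median of all tested genes by -0.12, and the member median was then 0.12 with 3 of 35 members called higher, where 10.3% of all tested genes were. The higher ones were the core gene *Psma4*, the regulatory genes *Psmc5*, *Psmc6*, *Psmd1*, *Psmd7* and *Psmd8*, and *Psmc3ip*. *Psmc6* had 154, 162 and 151 CPM in the combined group, against 123, 113 and 116 CPM in controls (log2 fold change 0.41 ± 0.09, edgeR adjusted p = 0.00203). *Psma4* had 81.8, 97.5 and 85.3 CPM in the combined group, against 59.5, 67.3 and 56.8 CPM in controls (log2 fold change 0.53 ± 0.14, edgeR adjusted p = 0.00637). These 2 calls held in all 14 alternatives. The protease subunit genes and *Psmd14* were not called here, with log2 fold changes of 0.40 for *Psmb5* (edgeR adjusted p = 0.0506), 0.41 for *Psmb7* (0.0552), 0.16 for *Psmb6* (0.285) and 0.01 for *Psmd14* (0.965).

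*Psmd1* had 256, 279 and 250 CPM in the combined group, against 208, 183 and 197 CPM in controls (log2 fold change 0.42 ± 0.12, edgeR adjusted p = 0.0118; not called without control replicate 2). *Psmd7* (ENSMUSG00000039067), the lid partner of *Psmd14*, had 204, 250 and 224 CPM in the combined group, against 178, 175 and 181 CPM in controls (log2 fold change 0.34 ± 0.10, edgeR adjusted p = 0.0149). *Psmd8* had 564, 617 and 604 CPM in the combined group, against 431, 450 and 450 CPM in controls (log2 fold change 0.42 ± 0.13, edgeR adjusted p = 0.0162). None of these 3 overlapped. The *Psmd7* call was lost in 3 and the *Psmd8* call in 4 of 14 alternatives.

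*Psmd10* was again lower, with 35.8, 39.4 and 42.0 CPM in the combined group, against 55.1, 53.4 and 61.1 CPM in controls (log2 fold change -0.53 ± 0.13, edgeR adjusted p = 0.003), in all 14 alternatives. *Psma3* (ENSMUSG00000060073), an alpha ring gene, had 29.5, 28.9 and 30.0 CPM in the combined group, against 35.7, 44.3 and 43.3 CPM in controls (log2 fold change -0.48 ± 0.145, edgeR adjusted p = 0.0159). Its call was lost when libraries were thinned and without control replicate 2 or 3. In 24 members every combined library lay above every control library and in 2 below, against 27% and 24.9% of all tested genes. A fit of only these 6 libraries called 20 members higher, against 21.2% of all tested genes, and voom with sample weights called 21, against 22.6%.

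**Figure D5:**
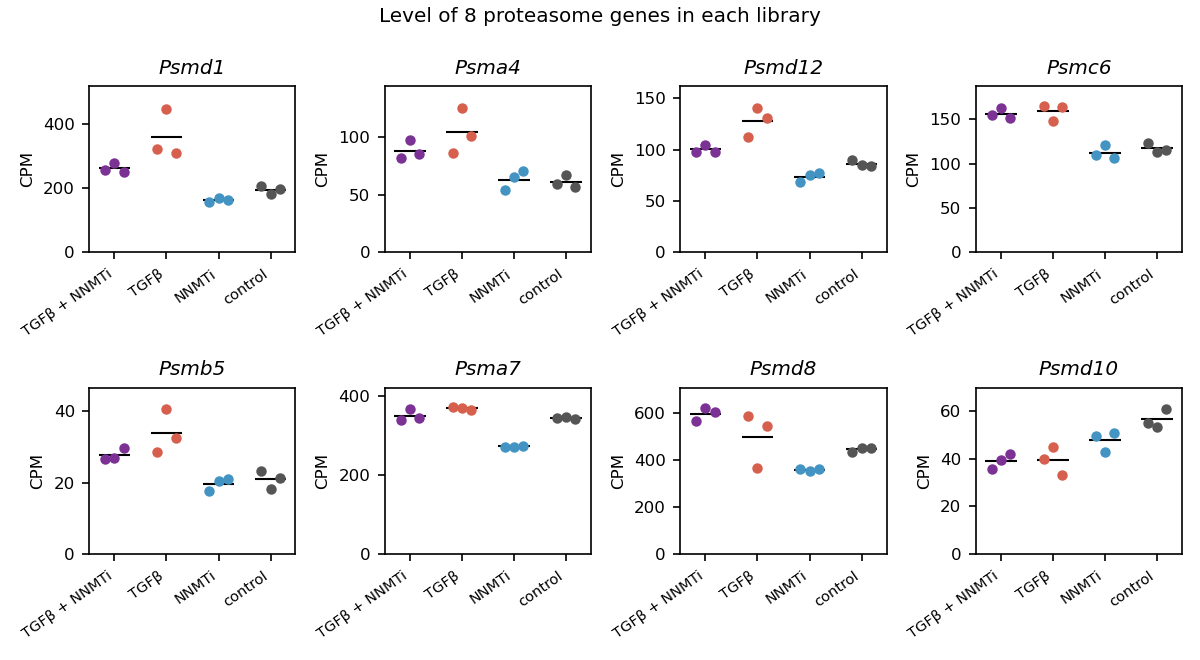
CPM of 8 proteasome genes in each library, with the group mean as a bar; each panel has its own axis starting at 0. *Psmd1*, *Psma4*, *Psmd12*, *Psmc6* and *Psmb5* are higher with TGFβ than in controls, *Psma7* is lower with NNMTi than in controls, *Psmd8* has a low TGFβ replicate 2, and *Psmd10* is lower in both TGFβ-treated groups than in controls.

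*Psmc3ip* (ENSMUSG00000019303), which is not a subunit, had 21.3, 13.9 and 16.4 CPM in the combined group, 18.7, 18.2 and 14.5 CPM with TGFβ, 12.8, 12.1 and 10.6 CPM with NNMTi and 12.7, 13.2 and 10.2 CPM in controls. It was called higher in the TGFβ comparisons (log2 fold change 0.54 both without and with NNMTi; edgeR adjusted p = 0.0305 and 0.0284), and the call against controls was lost in 8 of 15 alternatives. Without it, 16 of 34 members were called higher with TGFβ and 22 of 34 in the combined group against NNMTi.

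Genes that act with the proteasome were followed as lists, of which 45 genes were tested. With TGFβ against control 13 were called higher and 2 lower, where 19.4% and 17.1% of all tested genes were. In the combined group against NNMTi the counts were 13 and 1, where 18% and 18.3% of all tested genes were called. In the combined group against TGFβ they were 0 and 5, where 3.45% and 6.97% were called, and against control 5 and 2, where 15.3% and 16.5% were called. With NNMTi against control they were 0 and 2, where 2.47% and 5.8% were called. Of 7 tested genes of proteasome-bound deubiquitinases, ligases and associated proteins, 4 rose with TGFβ and 0 fell. *Usp14* had 124, 163 and 147 CPM with TGFβ, against 95.4, 90.2 and 95.6 CPM in controls (log2 fold change 0.62, edgeR adjusted p = 0.000146). *Uchl5* had 41.1, 61.4 and 39.4 CPM with TGFβ, against 27.7, 33.0 and 29.5 CPM in controls (log2 fold change 0.68, edgeR adjusted p = 0.00354). Of 5 shuttle genes 2 rose with TGFβ. The shuttle gene *Ubqln2*, whose protein brings ubiquitinated substrates to the proteasome, had 57.7, 68.4 and 70.0 CPM with TGFβ, against 42.7, 37.0 and 32.6 CPM in controls (log2 fold change 0.80, edgeR adjusted p = 0.00056). *Rad23b*, another shuttle, was higher with TGFβ (log2 fold change 0.40, edgeR adjusted p = 0.00189) and lower with NNMTi (log2 fold change -0.33, edgeR adjusted p = 0.0296), both against controls. The proteasome-associated thioredoxin gene *Txnl1* followed the same pattern, with log2 fold changes of 0.56 with TGFβ (edgeR adjusted p = 0.000411) and -0.37 with NNMTi (edgeR adjusted p = 0.0358). Of the 7 assembly factor genes, *Psmg4* was called higher with TGFβ (log2 fold change 0.45, edgeR adjusted p = 0.034) and the others were not called; *Pomp*, the maturation factor of the core, had a log2 fold change of -0.04.

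Neither transcription factor gene was called higher with TGFβ. These are RNA levels, and the activity of the proteins was not measured. *Nfe2l1* had 160, 130 and 174 CPM with TGFβ, against 181, 177 and 177 CPM in controls, without overlap and not called (log2 fold change -0.21, edgeR adjusted p = 0.112). It had 188, 186 and 184 CPM in the combined group and 213, 211 and 217 CPM with NNMTi. With NNMTi against control it was not called either (log2 fold change 0.26). *Nfe2l2*, which encodes the related factor NRF2, had 69.5, 85.6 and 64.3 CPM with TGFβ, against 184, 184 and 185 CPM in controls, and was lower (log2 fold change -1.32, edgeR adjusted p = 4.95e-08). In the combined group *Nfe2l2* had 68.3, 85.3 and 70.4 CPM, against 207, 220 and 229 CPM with NNMTi (log2 fold change -1.55, edgeR adjusted p = 3.78e-09). Among the immunoproteasome genes, *Psmb8*, whose protein replaces that of *Psmb5*, had 90.4, 88.9 and 93.0 CPM in the combined group, against 152, 212 and 158 CPM with TGFβ (log2 fold change -0.94, edgeR adjusted p = 4.49e-05). It was higher with TGFβ than in controls, which had 98.4, 96.4 and 92.4 CPM (log2 fold change 0.87, edgeR adjusted p = 1.12e-05). *Psmb10* had 19.8, 28.1 and 27.5 CPM in the combined group, against 36.6, 52.3 and 37.5 CPM with TGFβ. In that comparison 2 of the 3 immunoproteasome genes were called lower, where 6.97% of all tested genes were. The inhibitor's target gene *Nnmt* had 26.9, 27.2 and 23.6 CPM in the combined group, 29.1, 24.7 and 33.3 CPM with TGFβ, 15.3, 20.0 and 22.2 CPM with NNMTi and 27.7, 22.8 and 28.2 CPM in controls. With NNMTi against control it had no overlap and was not called (log2 fold change -0.45, edgeR adjusted p = 0.0907). In the combined group against NNMTi it was called higher (log2 fold change 0.44).

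Marker genes of several cell types also moved with TGFβ, although all libraries were of 1 cell line. Of 5 kidney epithelium markers tested, 2 were called higher and 2 lower with TGFβ, against 19.4% and 17.1% of all tested genes. *Krt8* had a mean of 288 CPM with TGFβ and 62.6 CPM in controls, and *Cdh16* 76.0 and 213 CPM. The 4 podocyte markers summed to 54.55 to 100 CPM with TGFβ and 120 to 135 CPM in controls. They summed to 107 to 122 CPM in the combined group and 131 to 168 CPM with NNMTi. The 6 fibroblast markers summed to 35.4 to 46.7 CPM in the combined group, 150 to 187 CPM with TGFβ, 3.19 to 5.21 CPM with NNMTi and 3.63 to 7.37 CPM in controls; 2 of the 6, *Pdgfra* and *Lum*, were at 0 in all libraries and *Col1a1* gave most of the sum. The 8 proximal tubule markers summed to 129 to 136 CPM in the combined group, 102 to 113 CPM with TGFβ, 1044 to 1124 CPM with NNMTi and 1089 to 1170.0 CPM in controls. *Aqp1* carried these differences, with means of 11.5 CPM in the combined group, 25.2 CPM with TGFβ, 995 CPM with NNMTi and 1013 CPM in controls. *Lrp2* had means of 119 CPM in the combined group, 80.1 CPM with TGFβ, 86.9 CPM with NNMTi and 105 CPM in controls. The 5 immune markers summed to 25.8 to 31.6 CPM in the combined group, 43.3 to 58.5 CPM with TGFβ, 59.8 to 71.4 CPM with NNMTi and 73.8 to 79.0 CPM in controls, with *Ptprc* at or near 0. The 4 endothelial markers summed to at most 0.437 CPM in any library. Their part in the proteasome results was not tested, and in bulk RNA fewer cells of a type and less RNA per cell cannot be told apart. In the annotation 17 of the 37 members share bases with another gene, on the same strand in 8 cases, among them *Psmd1*, *Psmd12*, *Psmb5*, *Psmb7* and *Psmc5*, and on the opposite strand in 14, among them *Psma4*. This was taken over whole gene spans, introns included, so exons need not be shared. The strand used for counting is not given in the sources used here, so reads of these genes may include some from the genes they share bases with. Reads ambiguous between genes, 0.61 to 0.80% of each total, were assigned to no gene, so these members may also lack some reads.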

How the data were processed

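Messenger RNA was measured in 12 QuantSeq 3′ FWD libraries made from 100 ng of total RNA. The deposited values are whole-number counts per gene; per the submitters' processing notes, the authors used STAR and HTSeq, and the versions are not stated. The build named there is GRCh38, a human build, although the identifiers are mouse, so no positions were taken from the counting; promoter windows are RefSeq's on GRCm38.p6. Symbols were matched for 55141 of 55487 identifiers. Reads assigned to no gene were 21.1 to 26.8% of each total and stayed out of library sizes.

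The statistics used R 4.3.3 with edgeR 4.0.16 and limma 3.58.1. After filterByExpr and TMM scaling, 1 model with a mean for each of the 4 groups gave all comparisons, using edgeR's quasi-likelihood test with robust estimates. Fold changes are on the fitted log2 scale with edgeR's default prior count. Alternatives were other scalings, DESeq2 1.42.0, limma voom with sample quality weights, no low-count filter, thinning, a replicate block, fits of only the groups compared, and leaving out libraries. The procedure was tested on simulated data. The members, related lists and marker lists were chosen with earlier results of these data known. Named with values in every sample were *Psmb5*, *Psmb6*, *Psmb7* and *Psmd14*, up to 5 called members per direction and comparison with the smallest adjusted p, and the members with the highest and lowest mean; *Psmd2*, *Psmb2* and the related genes given by sample were chosen after their values were seen. Replicates were compared by chi-square over genes (3.23 to 40.9 per degree of freedom), so none was a duplicate. Precision is that of 3 libraries per group, at 2584117 to 11866903 counts each.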

Additional observations from a re-analysis of the deposited data

Results flagged for a closer look

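For the interaction 0.641% of all tested genes were called higher and 0.471% lower. *Psmb8*, an immunoproteasome gene, was the only 1 of 45 related genes tested whose NNMTi effect was called different with and without TGFβ. Its interaction was -0.73 on the log2 scale (edgeR adjusted p = 0.0365): 90.4, 88.9 and 93.0 CPM in the combined group against 152, 212 and 158 CPM with TGFβ, and 81.4, 77.2 and 88.6 CPM with NNMTi against 98.4, 96.4 and 92.4 CPM in controls. The call was lost with the replicate block (-0.72, adjusted p = 0.0545), when thinned (-0.62, adjusted p = 0.161) and on leaving out any 1 library of the combined, NNMTi or control groups.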

How the results depend on the processing

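No called direction was reversed in any alternative tried. Shares in parentheses are those of all tested genes called in the same direction and setting. With TGFβ against control, 10 members were called higher in the fit of only those 2 groups (15.4%). Called lower were 2 with voom weights (20.9%) and 0 when thinned (15.5%). With NNMTi against control, members called lower were 2 with DESeq2 size factors (6.33%), 3 by library size alone (7.63%) and 2 with DESeq2 (6.46%). With voom weights they were 16 (12.3%) and in the 2-group fit 18 (12.7%). For the combined group against TGFβ, members called lower were 1 with voom weights (8.73%) and 4 without a low-count filter (4.56%). When thinned 1 was called lower (4.6%), and in the 2-group fit 0 were (2.59%). Against NNMTi, combined-group members called lower were 2 by library size alone (20.2%), 1 with voom weights (22.7%) and 2 in the 2-group fit (22.8%). Against control, combined-group members called higher were 3 by library size alone (10.3%), 21 with voom weights (22.6%) and 20 in the 2-group fit (21.2%). When thinned 1 was called lower (13.9%). For the interaction, 1 member was called higher with voom weights (2.04%) and 1 without a low-count filter (0.804%), in both cases *Psmd8*. The cause of these differences was not tested. Leaving out 1 library at a time gave 12 to 23 higher (15.3 to 20.3%) and 1 lower (13.7 to 18%) for TGFβ against control. For NNMTi against control it gave 0 higher (0.855 to 1.08%) and 0 to 1 lower (3.39 to 3.93%). The combined group against TGFβ had 0 higher (1.84 to 4.79%) and 0 to 4 lower (3.62 to 9.21%). Against NNMTi the combined group had 20 to 24 higher (14.7 to 16%) and 0 lower (14.3 to 15.5%). Its counts against control were 4 to 6 higher (11.1 to 12.3%) and 1 to 2 lower (13.4 to 14.7%). The interaction had 0 to 1 higher (0.295 to 1.97%) and 0 lower (0.172 to 0.9%). The labels do not tell whether the replicate numbers pair the libraries. Deviations of same-numbered libraries correlated between -0.08 and 0.20, which cannot settle this, because a small shared effect could be hidden by other differences. With replicate number as a block, 17 members were called higher (19%) and 1 lower (16.9%) for TGFβ against control. For NNMTi against control the higher and lower counts were 0 (2.16%) and 1 (5.44%). For the combined group they were 0 (3.15%) and 2 (6.46%) against TGFβ, and 24 (17.9%) and 0 (18.1%) against NNMTi. Against control they were 9 (15.1%) and 2 (16.3%), and for the interaction 0 (0.545%) and 0 (0.331%). Among the results for single genes and medians under alternatives, 7024 kept their side of the threshold, 259 gained a call, 241 lost one and 5 medians moved by over 1.5 times: 0.12 for the combined group against control by library size alone, and for the interaction 0.17 when thinned, 0.06 without TGFβ replicate 1, 0.06 without replicate 3 and 0.18 without replicates 2 and 3. With every library thinned to the depth of TGFβ replicate 3, 17 members were called higher for TGFβ against control (18.6%).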
